A study of Mus musculus with 18 samples.

Results

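The guanylate-binding proteins (GBPs) are large GTPases of the dynamin superfamily, and 10 mouse Gbp genes were described in RNA sequencing data of bone marrow-derived macrophages (BMDMs). The members were the rows of the count table named Gbp2, Gbp2b, Gbp3, Gbp4, Gbp5, Gbp6, Gbp7, Gbp8, Gbp9 and Gbp10, which make up 10 of 21734 protein-coding genes. BMDMs came from wild-type mice (WT), from mice in which the pre-miRNA of miR-146a is deleted (KO), and from mice carrying the 3′F allele (3F), in which bases 13 to 20 of mature miR-146a are exchanged and the seed is kept. The miR-146a KO is carried by every cell of the mouse and not by macrophages alone. All mice were of a mixed 129 and B6 background and were 6 to 7 months old according to the labels (the methods name younger mice for the macrophages of the study's proteomics), and every culture was grown for 8 to 9 d in 10 ng/ml M-CSF, the growth factor that turns marrow cells into macrophages. Cells of each genotype were either left resting, with a change of LPS-free medium, or given 1 ng/ml lipopolysaccharide (LPS), a part of the bacterial outer membrane, for 16 h. There were 3 libraries in each of the 6 groups. The question was how far the 3′ bases of the miRNA, apart from its seed, matter for its action in macrophages.

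GBPs are among the genes that interferons induce most strongly. In an infected cell they gather on the vacuole of a parasite or on the surface of a cytosolic bacterium, where several of them together expose the pathogen and its LPS to the inflammasome, the complex that activates caspases and gasdermin D. Macrophages given LPS sense it through TLR4, make interferon-β and then answer their own interferon. miR-146a is known as a brake on the same TLR4 pathway.

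The genes lie in 2 clusters of the mouse genome (GRCm38, the same build as mm10). Gbp5, Gbp7, Gbp3, Gbp2b and Gbp2 follow each other on the plus strand of chromosome 3 within 144.0 kb, from 142493978 to 142638008. Gbp2b (ENSMUSG00000040264) spans 142594847 to 142619179, and its neighbour Gbp2 (ENSMUSG00000028270) spans 142620602 to 142638008. Gbp8, Gbp9, Gbp4, Gbp10 and Gbp6 lie on the minus strand of chromosome 5 within 279.5 kb, from 105014150 to 105293698. Over aligned bases the longest coding regions of Gbp2 and Gbp2b were 82.5% identical, those of Gbp6 and Gbp10 98.4%, and those of Gbp4 and Gbp5, the least alike pair, 65.8%.

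The interferon-stimulated response element (ISRE) is a sequence through which interferons induce genes, and it is shown here because the members with most counts moved together. Its core, searched as GAAA, any 2 bases and GAAA on both strands of the 300 bases around each gene start (250 before and 50 after, RefSeq, GRCm38.p6), was present in 3.44% of 32851 promoters. It was present in 5 of the 5 members that have a promoter in that set, all of them of the chromosome 3 cluster. Each window below is read on the plus strand, where the core appears as its reverse complement, and the capitals mark it.
Gbp2, chr3:142620594-142620623: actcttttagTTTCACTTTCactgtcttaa
Gbp2b, chr3:142594700-142594729: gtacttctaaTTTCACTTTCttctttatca
Gbp3, chr3:142559989-142560018: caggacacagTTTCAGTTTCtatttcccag
Gbp5, chr3:142496759-142496788: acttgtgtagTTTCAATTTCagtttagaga
Gbp7, chr3:142530273-142530302: gtgtgtgcagTTTCAGTTTCagttctccat
The core of Gbp2 and that of Gbp2b are the same 10 letters. Gbp3 holds a second match that overlaps the one shown. A match is a description of the letters and not a binding site. An NF-κB core, searched as GGG, any 5 bases and CC on both strands, was present in 4 of the 5 and in 50.79% of all promoters.

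The miRNA altered in these mice is shown beside its changed form, with the seed (bases 2 to 8) in capitals. The mature sequence is from RefSeq (chr11:43374435-43374456, minus strand, GRCm38.p6), and the 3′F strand is the one the study designed for its mimic of the allele.
miR-146a-5p: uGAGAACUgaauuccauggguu
3′F strand: uGAGAACUgaauaagugucc
The WT and 3′F mimic strands differed at 8 positions, 13 to 20. A site of 7 or 8 bases was found in the longest annotated 3′ UTR of 2 of the 10 members, Gbp4 and Gbp10, with 1 site each. Of 20788 genes 18.2% held one. Such sites matched either the whole seed or its bases 2 to 7 followed by an A. Both members held the latter kind, so neither 3′ UTR matched the whole seed. Gbp7 held only matches of 6 bases, to bases 2 to 7 without that A, and the remaining members held none.

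Total counts ran from 4071084 to 19818043 per library. Levels are given in CPM, read counts scaled to a library size of 1000000 after TMM, and a group with 3 counts or fewer in each of its libraries was treated as being at the floor. A gene was called when its adjusted p in the edgeR quasi-likelihood test over 11357 genes was under 0.05. Resting KO replicate 3 stood apart over all genes tested, with the tested members among them. On the first principal component of all genes, which held 61.8% of the variance, it lay at 19.7, where the other resting KO libraries lay at -28.2 and -31.4 and LPS libraries of WT and 3F spanned 17.4 to 43.6. The LPS libraries of its own genotype lay higher, at 58.8 to 70.6. Whether its label is right was not tested, so values of resting KO are given for each library or also without it. Resting 3F replicate 3, the shallowest library, stood apart on the second component at 50.3. All 8 macrophage markers were detected in every library, with a summed level of 31800 to 87900 CPM. Most of that sum was Lyz2 (245807 to 1038012 counts), and the lowest marker, Mertk, had 185 to 1996 counts. The summed level of 8 T and NK cell genes was at most 12.2 CPM, with Cd3e at 0 counts in each library and Cd4 at 4 to 194 counts. In these bulk samples fewer cells of a type and less RNA per cell cannot be told apart.

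In resting WT BMDMs the family was expressed at low levels, and Gbp2 took the largest share. Per kb of exon length, a scale on which genes can be compared, Gbp2 took 44.75% to 48.24% of the members' summed level, followed by Gbp3, Gbp7, Gbp9 and Gbp5. Gbp2, which has a lipid anchor and acts against Toxoplasma and cytosolic bacteria, stood at 14.8, 11.2 and 28.3 CPM in WT replicates 1 to 3. The sum over all 10 members was 34.3 to 76.8 CPM in resting WT and 46.0 to 55.2 CPM in resting 3F. Gbp2b, Gbp4, Gbp6, Gbp8 and Gbp10 had 9 counts or fewer in every resting WT and 3F library.

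**Figure D1:**
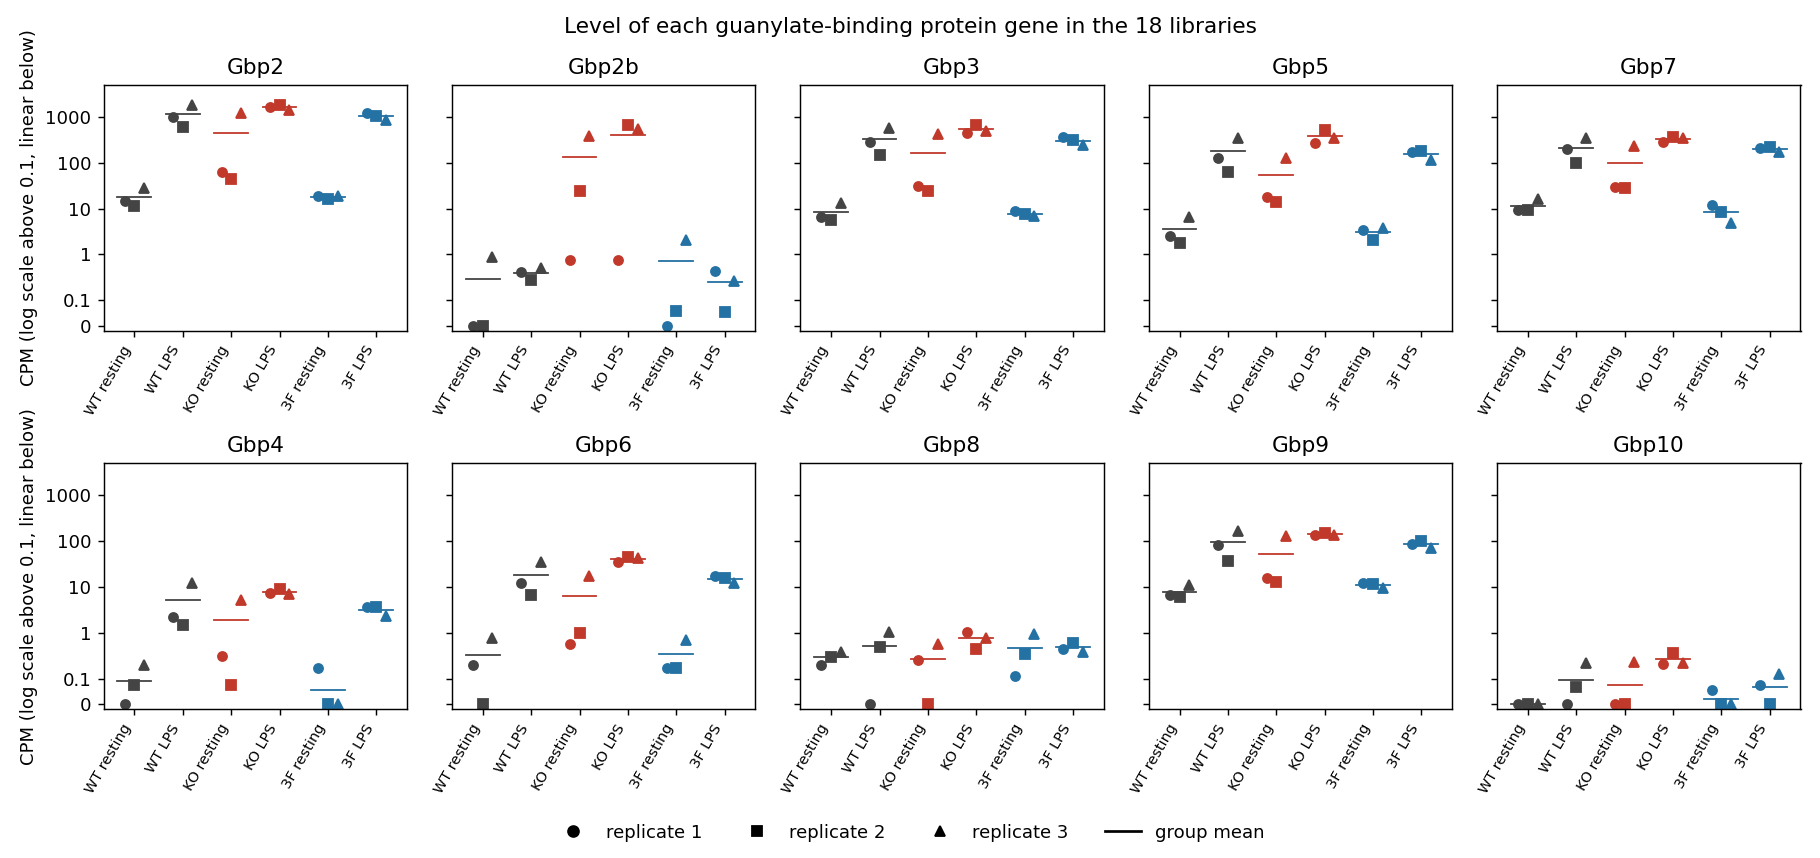
Level of each of the 10 members in CPM (log scale above 0.1, linear below) in the 6 groups, with a marker shape for each replicate number and a line at the group mean. Resting KO replicate 3 (triangle) sits well above the other resting KO libraries for the 7 members that LPS raised in WT, and Gbp2b is above 20 CPM in KO replicates 2 and 3 alone.

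LPS raised most of the family in WT cells. Of 9 members tested, 7 were called higher and none lower (Gbp2, Gbp3, Gbp4, Gbp5, Gbp6, Gbp7 and Gbp9), where 28.5% of all genes tested were called and 16.3% were called higher. The median log2 fold change of the 9 was 5.35, against 0.02 over all genes. Gbp10 had too few counts to be tested, so a count over the 9 says nothing of it.

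Gbp2 with LPS stood at 1006, 600.5 and 1852 CPM in WT replicates 1 to 3. The lowest of these was far above the highest resting library, at 28.3 CPM, and the groups did not overlap. The log2 fold change was 6.00 ± 1.02 (SE), with an adjusted p of 0.000402 in the edgeR quasi-likelihood test.

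Gbp3 and Gbp7, both recruited to parasite vacuoles, also rose. Gbp3 went from 6.44, 5.57 and 12.96 CPM to 284.9, 151 and 572 CPM (log2 fold change 5.35 ± 0.93, edgeR adjusted p = 0.000470). Gbp7 went from 9.20, 9.49 and 15.9 CPM to 199, 96.8 and 344 CPM (4.22 ± 0.71, edgeR adjusted p = 0.000393). In both genes WT replicate 2 was the lowest and replicate 3 the highest of the LPS libraries, as in Gbp2.

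Gbp5, a lipid-anchored member known for its link to the NLRP3 inflammasome, stood at 2.50, 1.81 and 6.48 CPM at rest and at 125, 64.2 and 342.5 CPM with LPS. Its log2 fold change was 5.67 ± 0.88 (edgeR adjusted p = 0.000196). Gbp9, another member that reaches parasite vacuoles, stood at 6.70, 5.87 and 10.9 CPM at rest and at 81.5, 37.1 and 163 CPM with LPS (3.60 ± 0.73, edgeR adjusted p = 0.00163). It had the smallest change of the 7 called members.

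Gbp4 and Gbp6 started from the floor or close to it. Gbp4 had 0, 1 and 2 counts at rest and 31, 22 and 163 counts with LPS, so its level was at least 21.9-fold higher when computed against 3 counts per library (edgeR adjusted p = 0.00500). Gbp6 had 3, 0 and 8 counts at rest and 175, 96 and 473 with LPS (log2 fold change 5.91 ± 1.21, edgeR adjusted p = 0.00174).

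Gbp2b and Gbp8 were not called. Gbp2b, the gene long called Gbp1 in mice, had 0, 0 and 9 counts in resting WT, where 0 counts allow up to 0.197 and 0.226 CPM, and 6, 4 and 7 counts in WT with LPS. These groups overlapped, and the gene stayed below 1 CPM in all 6 WT libraries. Gbp8 had 3, 4 and 4 counts at rest and 0, 7 and 14 with LPS.

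In 3F cells the same 7 members were called higher, where 31.2% of all genes were called and 17.2% were called higher. Gbp2 went from 18.7, 15.9 and 18.7 CPM to 1213, 1053 and 856 CPM (log2 fold change 5.88 ± 1.02, edgeR adjusted p = 0.000446). The log2 fold change was 5.26 for Gbp3, 5.74 for Gbp5, 4.48 for Gbp7 and 2.95 for Gbp9. Gbp6 had 3 counts in each resting 3F library and was at least 43.6-fold higher with LPS, and Gbp4 was at least 9.21-fold higher. The 3F libraries with LPS were closer to each other than the WT ones were. The highest Gbp2 level was 1.42 times the lowest in 3F and 3.08 times in WT.

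In KO cells the fitted LPS response was smaller and fewer members passed the test. Of 9 members, 3 were called higher (Gbp5, Gbp6 and Gbp7), where 26.9% of all genes were called and 14.3% were called higher. Yet in 7 of the 9 each KO library with LPS was above each resting one, which holds for 23.8% of all genes. The difference between the counts rests on resting KO replicate 3. Gbp2 stood at 63.2, 43.7 and 1202 CPM in resting KO replicates 1 to 3 and at 1634, 1862 and 1438 CPM with LPS. Resting replicate 3 was thus 27.5 times the lowest resting library and close to the LPS range, and the log2 fold change was 1.92 ± 0.84 (edgeR adjusted p = 0.105). Without that library it was 4.94 ± 0.47 (edgeR adjusted p = 9.26e-07), and 8 of 9 members were called, Gbp8 being the exception. Of all genes 35.2% were called in that fit and 20.2% were called higher.

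The same library was high for the other members that LPS induces. Gbp5 stood at 17.5, 13.8 and 128 CPM in resting KO and at 275, 526 and 345 CPM with LPS (log2 fold change 2.86 ± 0.74, edgeR adjusted p = 0.00842). Gbp9 stood at 15.5, 12.7 and 127.5 CPM at rest and at 136, 152 and 132 CPM with LPS (1.45 ± 0.65, edgeR adjusted p = 0.112). In both genes resting replicate 3 was far above the other resting libraries. For Gbp7 the call at an adjusted p of 0.0491 was lost in 14 of the 18 fits that left out 1 library, with adjusted p up to 0.166 (without resting KO replicate 1).

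Markers of other cells were compared in that library. The summed level of 3 endothelial genes was 33.6 CPM in resting KO replicate 3, against 6.50 and 11.7 CPM in the other resting KO libraries. It was also 21.9 to 25.3 CPM in KO with LPS and 6.69 to 25.4 CPM in WT with LPS. That of 8 neutrophil genes was 53.3 CPM, against 15.7 and 28.0 CPM, and S100a8 held 430 of the counts. S100a9 had fewer counts in that library (22, against 39 and 93), as did Ngp (0, against 11 and 28) and Ltf (8, against 20 and 21). Mpo had 0, against 3 and 1, while Camp had more (15, against 6 and 4), and Ly6g and Elane were at 0 in all 3. These counts are not scaled, and that library was shallower (9147879 total counts, against 14757885 and 12147847). The T and NK cell list was lowest in it, at 3.14 CPM, against 10.3 and 11.5 CPM. Within that list Cd4 had 4 counts, against 144 and 141, while Cd2 had 24, against 20 and 10. The part of these in the Gbp levels was not tested.

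The interaction test asked whether the LPS response of KO differed from that of WT. No member was called, and 1 of all 11357 genes was (0.00881%). At an unadjusted p under 0.05, 5 members had a smaller response in KO (Gbp2, Gbp3, Gbp5, Gbp7 and Gbp9), where 3.71% of all genes did. For Gbp2 the difference of log2 responses was -4.08 ± 1.21 (edgeR adjusted p = 0.509). Without resting KO replicate 3 it was -1.07 ± 0.51 (edgeR adjusted p = 0.933), and none of the members had an unadjusted p under 0.05. Between 3F and WT no member was called either (0% of all genes), and none had an unadjusted p under 0.05, against 1.79% of all genes.

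Resting KO cells had more transcripts of most members than resting WT cells. Of 9 tested, 6 were called higher (Gbp2, Gbp2b, Gbp3, Gbp5, Gbp7 and Gbp9) and none lower, where 9.4% of all genes were called and 5.12% were called higher. The members' median log2 fold change was 4.25, against 0.02 over all genes. For 5 of the 9 each KO library was above each WT library, which holds for 13.7% of all genes.

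The size of these differences rested on 1 library, while the direction held without it for the members called. Gbp2 at 63.2 and 43.7 CPM in KO replicates 1 and 2 was already above the highest WT library at 28.3 CPM. With all libraries the log2 fold change was 4.60 ± 0.95 (edgeR adjusted p = 0.00778), and without resting KO replicate 3 it was 1.58 ± 0.39 (edgeR adjusted p = 0.0222). Gbp3 stood at 31.5, 23.8 and 432 CPM in KO, and its log2 fold change went from 4.30 ± 0.89 (edgeR adjusted p = 0.00753) to 1.76 ± 0.44 (edgeR adjusted p = 0.0235). Gbp5 went from 3.92 ± 0.84 (edgeR adjusted p = 0.00894) to 2.19 ± 0.62 (edgeR adjusted p = 0.0461). Those 3 were the members called without that library, where 7.03% of all genes were called and 3.61% were called higher.

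Gbp7, at 30.1, 28.2 and 236 CPM in resting KO, had a log2 fold change of 3.09 ± 0.68 (edgeR adjusted p = 0.0103) with all libraries and of 1.36 ± 0.40 (edgeR adjusted p = 0.0507) without replicate 3. Gbp9 had 2.72 ± 0.71 (edgeR adjusted p = 0.0251) and 0.87 ± 0.44 (edgeR adjusted p = 0.272). Gbp4 had 5, 1 and 47 counts and Gbp6 9, 13 and 155 counts in resting KO, and neither was called with or without that library. The calls also leaned on the WT side, since without resting WT replicate 2 only 1 member was called, Gbp3 (edgeR adjusted p = 0.0488).

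**Figure D2:**
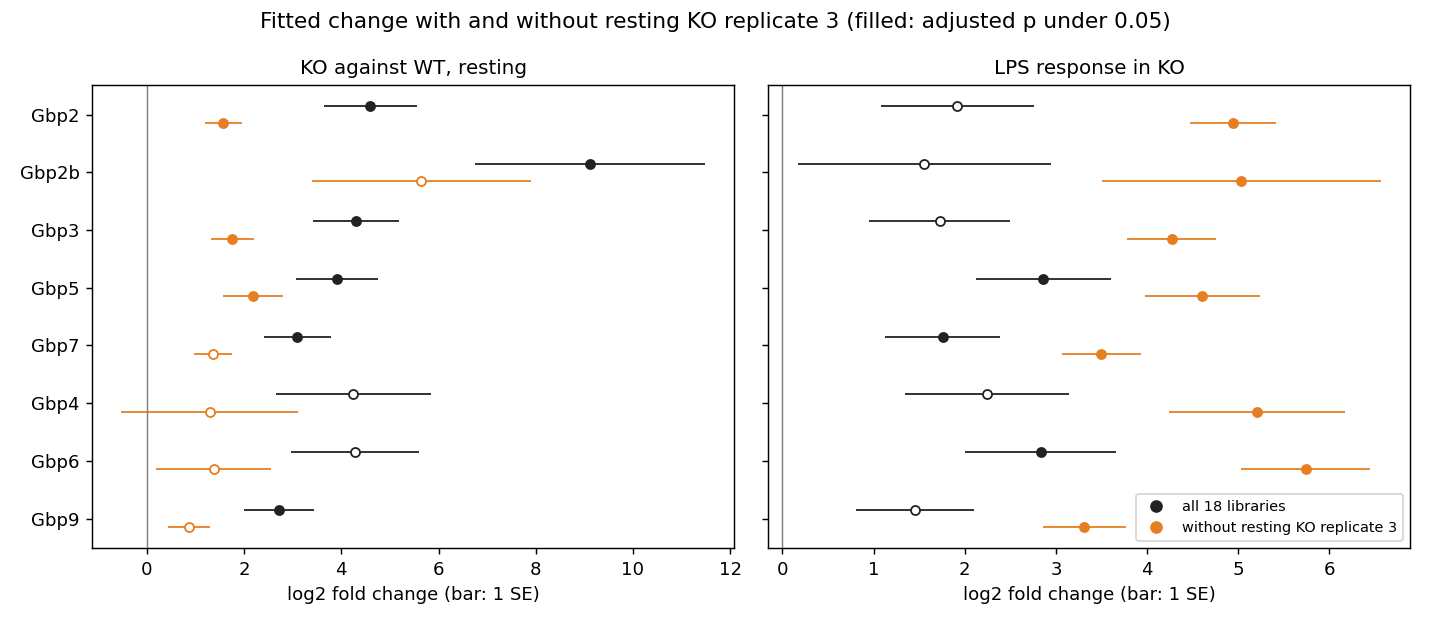
Fitted log2 fold change (point) and 1 SE (bar) of 8 members, resting KO against resting WT (left) and LPS against resting in KO (right), with all libraries and without resting KO replicate 3. Leaving that library out lowers Gbp2 from 4.60 to 1.58 on the left and raises it from 1.92 to 4.94 on the right.

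Against resting 3F, 7 members were called higher in KO (the 6 above and Gbp6), where 12.9% of all genes were called and 6.79% were called higher. The comparisons of KO with WT and with 3F share the KO libraries. Gbp2 had a log2 fold change of 4.62 ± 0.96 (edgeR adjusted p = 0.00859), and without resting KO replicate 3 it had 1.60 ± 0.39 (edgeR adjusted p = 0.0242). Without that library 4 members were called (Gbp2, Gbp3, Gbp5 and Gbp7), where 7.99% of all genes were called and 4.4% were called higher. Without that library and resting 3F replicate 3 together, 3 members were called. Gbp6, at 0.556, 0.994 and 17.4 CPM in resting KO replicates 1 to 3, had a mean at least 18.1-fold higher than 3F against the floor of 3 counts. Its log2 fold change was 4.56 ± 1.39 (edgeR adjusted p = 0.0419) and, without resting KO replicate 3, 1.66 ± 1.24 (edgeR adjusted p = 0.388). It was no longer called in 10 of the 18 fits without 1 library, and Gbp9 in 14 of them.

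After LPS the KO and WT groups were closer. Of 9 members 1 was called higher in KO, Gbp2b, where 4.79% of all genes were called and 1.89% were called higher. The other 8 had log2 fold changes of 0.51 to 1.20 and were not called, and their WT and KO libraries overlapped, where 16.9% of all genes had each KO library above each WT one. Gbp2, for example, stood at 600.5 to 1852 CPM in WT and 1438 to 1862 CPM in KO (0.51 ± 0.81, edgeR adjusted p = 0.814). Against 3F with LPS, again only Gbp2b was called, where 3.88% of all genes were and 1.51% were called higher. Yet 8 of 9 members had each KO library above each 3F library, which holds for 19.4% of all genes, with log2 fold changes from 0.66 for Gbp2 to 1.42 for Gbp6 beside Gbp2b. Gbp6 stood at 34.6, 45.9 and 42.3 CPM in KO and at 17.6, 15.7 and 12.3 CPM in 3F (1.42 ± 0.75, edgeR adjusted p = 0.375).

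**Figure D3:**
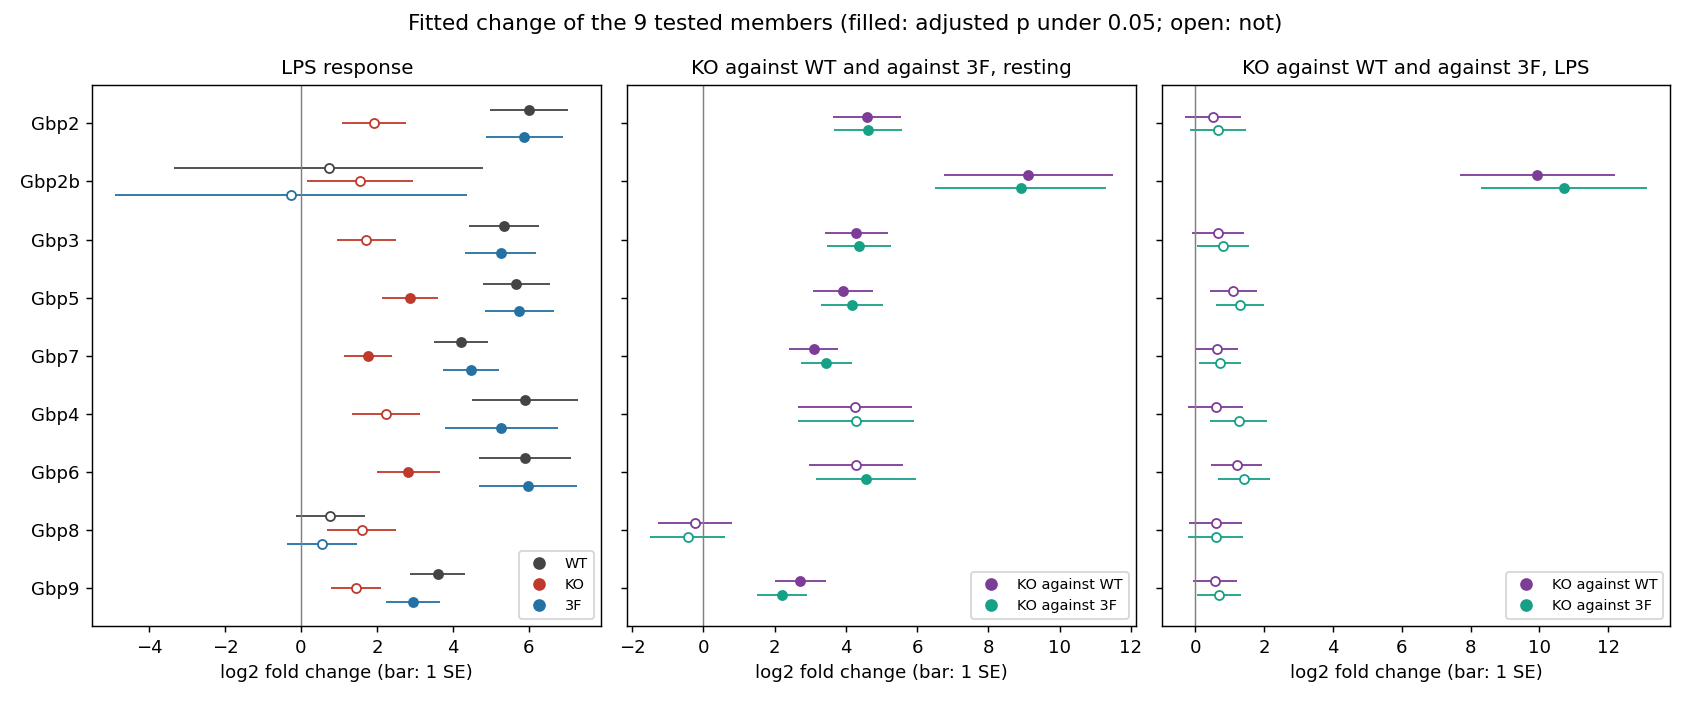
Fitted log2 fold change (point) and 1 SE (bar) of the 9 tested members for the LPS response in each genotype and for KO against WT and against 3F in each state, filled where the adjusted p is under 0.05. LPS raised 7 members in WT and 3F, and Gbp2b is the 1 filled member of the comparisons after LPS.

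No difference between 3F and WT passed the test in these genes. No member was called at rest or with LPS, where none and 1 of all 11357 genes were (0% and 0.00881%), and no member had an unadjusted p under 0.05, against 4.9% of all genes at rest and 0.933% with LPS. The log2 fold changes ran from -0.36 to 0.52 at rest and from -0.78 to -0.01 with LPS. Their standard errors ran from 0.69 to 4.62 and from 0.61 to 4.07, and the largest belonged to Gbp2b, so a difference of the size of these errors would have been missed.

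Gbp2b departed from the rest of the family. In resting KO it had 12, 316 and 3437 counts in replicates 1 to 3, which are 0.742, 24.2 and 385.9 CPM. With LPS it had 11, 9107 and 7565 counts, or 0.758, 659 and 540 CPM. It was therefore close to the WT level in the libraries numbered 1 and high in those numbered 2 and 3, in both states. The labels do not say whether a replicate number stands for the same mouse in both states, and the libraries were not regrouped by this level. The deposited count columns carry the same letter (A, B or C) for the same number in both states and in every genotype. For its small RNA libraries the paper calls such letters culture replicate identifiers. Whether they mark shared cultures here was not tested.

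Because of that spread the fitted difference was large and imprecise. Against WT with LPS the log2 fold change was 9.93 ± 2.26 (edgeR adjusted p = 0.0199), and against resting WT it was 9.11 ± 2.37 (edgeR adjusted p = 0.0240). The first call was lost without WT replicate 1, 2 or 3 or without KO replicate 2 with LPS, at adjusted p from 0.0565 to 0.110. The second was lost without any 1 of the resting WT libraries or without resting KO replicate 3, at adjusted p from 0.0728 to 0.154. Against 3F the log2 fold change was 8.90 ± 2.40 at rest (edgeR adjusted p = 0.0253) and 10.71 ± 2.42 with LPS (edgeR adjusted p = 0.0222), and these calls were lost in the same way, without any 1 of the 3F libraries compared or without 1 KO library. KO replicate 1 with LPS, at 11 counts, was above the WT libraries (4 to 7 counts) by a few reads alone. With limma-voom and quality weights Gbp2b was called in none of these 4 comparisons (5.92 ± 6.83 against WT with LPS, adjusted p = 0.600, and 4.29 ± 9.82 against resting WT, adjusted p = 0.803).

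Per kb of exon length Gbp2b made up 18.24% and 15.46% of the members' summed level in resting KO replicates 2 and 3, and 15.5% and 16.32% with LPS. It made up 0.52% and 0.03% in KO replicate 1, and 0% to 0.03% in the WT and 3F libraries with LPS. The larger shares of 1.28% in resting WT replicate 3 and 4.7% in resting 3F replicate 3 came from 9 counts each. Gbp2 made up 48.79% to 64.77% in KO with LPS and 63% to 70.04% in WT with LPS.

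**Figure D4:**
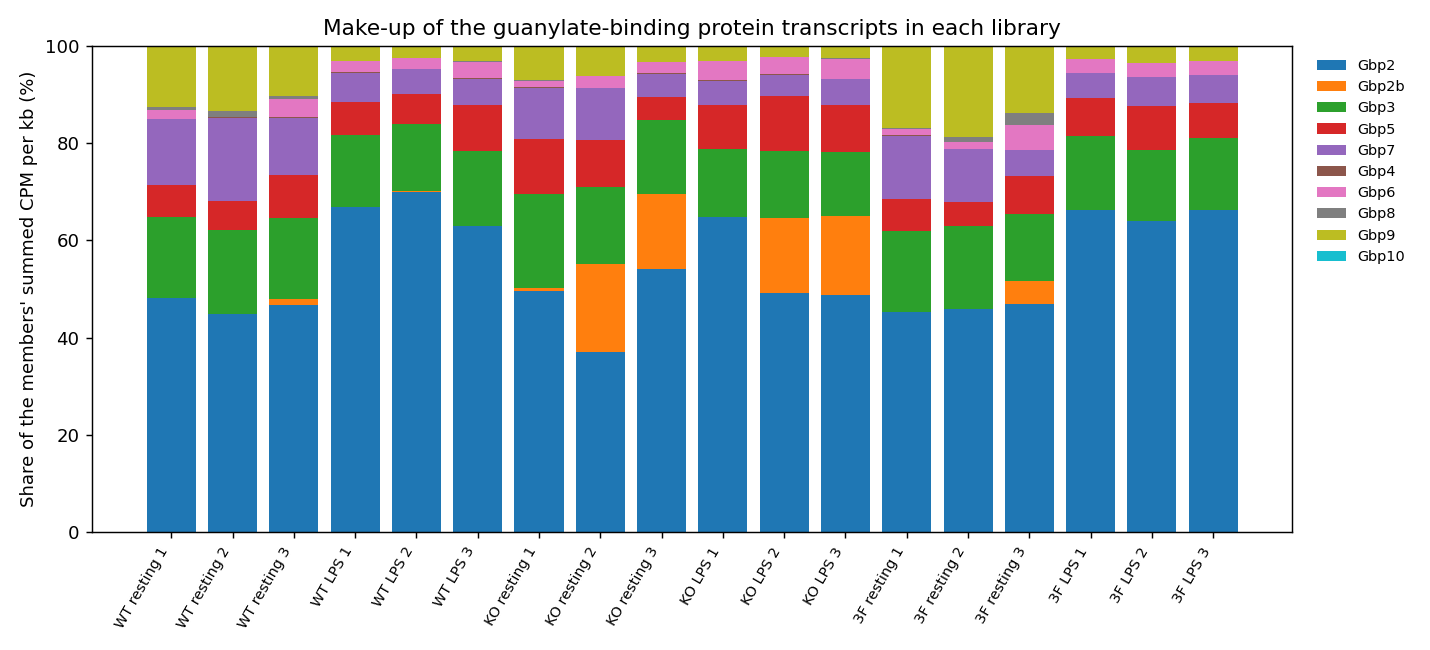
Share of each member in the members' summed CPM per kb of exon length, stacked to 100% for each of the 18 libraries. Gbp2b takes 15.46% to 18.24% in KO replicates 2 and 3 of both states and at most 4.7% in the other libraries.

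Over the 18 libraries the log2 CPM of 7 members (all tested ones but Gbp2b and Gbp8) had Pearson correlations with each other from 0.963 to 0.997. The libraries share the LPS treatment, so this describes a common pattern and is not a test. Gbp2b correlated with the 7 at 0.409 to 0.492, and Gbp8, with 0 to 15 counts per library, at 0.311 to 0.464. The genes outside the family most like the mean of the other members were Ifih1 and Rsad2 (0.995 each) and Ifit2, Mx1 and Tor3a (0.994 each). The first 4 are antiviral genes induced by interferon. Rsad2 stood at 12.4, 16.4 and 36.5 CPM in resting WT and at 102, 72.9 and 2010 CPM in resting KO, so that resting KO replicate 3 was high for it too.

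No gene followed Gbp2b as closely in level. The 5 nearest over the 18 libraries were Dgat2 (0.815), Taok2 (0.799), Alpk1 (0.797), Scarb2 (0.795) and Sirpb1c (0.786). Alpk1, a kinase that senses a bacterial sugar and lies on chromosome 3 at 127670310 to 127780527, stood at 53.8, 109 and 119 CPM in resting KO and at 108, 257 and 247 CPM with LPS. Replicate 1 was the lowest in both states, and the WT libraries with LPS lay between 60.7 and 79.8 CPM. In deviations from the group means, which set aside genotype and LPS, the nearest were Ccl9 (0.942), Ctsl (0.905), Gmpr (0.851), Fkbp5 (0.840) and Ciapin1 (0.825). Ctsl, the lysosomal protease cathepsin L on chromosome 13, stood at 3190, 6120 and 7180 CPM in resting KO and at 2430, 5570 and 4900 CPM with LPS. The chemokine gene Ccl9 stood at 476, 634 and 987 CPM and at 764, 1650 and 1350 CPM. In both genes KO replicate 1 was the lowest of its group. The genes named here were chosen for their likeness to Gbp2b, so a low KO replicate 1 in them is not a separate observation.

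Gbp8 and Gbp10 were barely detected in any group. Gbp8 had 0 to 15 counts per library and was called in none of the 11 comparisons. Gbp10 had 0 to 5 counts, the most in KO with LPS (3, 5 and 3 counts). Members of the chromosome 5 cluster share sequence. Of the 50-base stretches in their exons 90.18% of those of Gbp6, 82.49% of Gbp10 and 21.16% of Gbp8 also occur in other genes, and for Gbp6 and Gbp10 most are in Gm43302, an overlapping gene model that is not analysed here. The shares were 1.84% for Gbp2b and 2.07% for Gbp2, which share those with each other. The exon length in the table was 877 of 2604 coding-transcript bases for Gbp6 and 1736 of 3528 for Gbp10, which for Gbp10 equals the bases that no other annotated gene covers. Levels of Gbp6, Gbp10 and Gbp8 are uncertain for that reason, and the part of shared sequence in them was not tested.

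Other parts of the pathway were read from lists. Of 14 tested genes of interferon signalling, 11 rose with LPS in WT and none fell, with a median log2 fold change of 1.26, where 16.3% of all genes were called higher and the median of all genes was 0.02. Among them were Ifnb1, which encodes interferon-β, at 0 counts in resting WT and 5 to 11 counts with LPS (edgeR adjusted p = 0.0212), and Socs1, a feedback inhibitor (3.96 ± 0.63, edgeR adjusted p = 0.000236). In resting KO against WT, 4 rose and none fell, where 5.12% of all genes were called higher. Among them were Stat2 (2.31 ± 0.53, edgeR adjusted p = 0.0127), Irf1 (1.44 ± 0.26, edgeR adjusted p = 0.00368) and Irf9 (1.17 ± 0.20, edgeR adjusted p = 0.00289). Stat2 stood at 72.8, 53.8 and 357 CPM and Irf9 at 62.5, 56.5 and 116 CPM in resting KO replicates 1 to 3, so replicate 3 was the highest. Without it 3 of the 14 were called higher, Ifnar1 (0.61 ± 0.15, edgeR adjusted p = 0.0188), Irf1 (1.21 ± 0.26, edgeR adjusted p = 0.0117) and Irf9 (0.78 ± 0.12, edgeR adjusted p = 0.00216), where 3.61% of all genes were.

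The immunity-related GTPases act with GBPs on parasite vacuoles. Of 7 tested 6 rose with LPS in WT, led by Tgtp2 (6.50 ± 1.43, edgeR adjusted p = 0.00294), Iigp1 (6.48 ± 1.27, edgeR adjusted p = 0.00132) and Ifi47 (4.95 ± 0.88, edgeR adjusted p = 0.000573). The same 6 genes rose in resting KO against WT, with a median log2 fold change of 3.26 over the 7, and none was called in the LPS response of KO. The library that stood apart was far the highest, with Ifi47 at 41.3, 27.4 and 496 CPM and Iigp1 at 5.19, 3.75 and 79.3 CPM in resting KO replicates 1 to 3. Without replicate 3 the median in resting KO against WT was 1.23 and 1 gene was called, Ifi47 (1.91 ± 0.41, edgeR adjusted p = 0.0114), and 7 of the 7 were called higher in the LPS response of KO. With all libraries Tgtp1 was the gene not called in either, and it and Tgtp2 are near-identical copies whose reads are hard to separate.

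Genes of the ATG conjugation system, which places GTPases on vacuoles, had calls in both directions. In the LPS response of WT, Atg5 (0.65 ± 0.11, edgeR adjusted p = 0.000454) and Atg16l1 (0.51 ± 0.14, edgeR adjusted p = 0.0106) rose and Atg7 fell by 0.48 on the log2 scale (edgeR adjusted p = 0.0202) among 9 tested, and none was called in resting KO against WT. Of 8 inflammasome genes, 7 rose with LPS in WT, led by Il1b (4.33 ± 0.77, edgeR adjusted p = 0.000593), Casp4, the sensor of cytosolic LPS (2.18 ± 0.27, edgeR adjusted p = 2.77e-05), and Casp1 (1.56 ± 0.28, edgeR adjusted p = 0.000550). In resting KO against WT, 3 of the 8 rose, Il18 (1.85 ± 0.44, edgeR adjusted p = 0.0156), Gsdmd (1.10 ± 0.31, edgeR adjusted p = 0.0333) and Casp4 (0.92 ± 0.27, edgeR adjusted p = 0.0435). Replicate 3 was the highest resting KO library for all 3, as for Il18 at 12.7, 11.1 and 43.6 CPM, and it was the lowest for Il1b (19.7, 11.2 and 4.49 CPM) and Nlrp3 (149, 125 and 53.1 CPM). Without it none of the 3 was called and Nlrp3 was (1.005 ± 0.18, edgeR adjusted p = 0.00457). After LPS no gene of the 4 lists was called in KO against WT with all libraries. Without resting KO replicate 3, 1 immunity-related GTPase and 2 inflammasome genes were called higher there, where 3.57% of all genes were. The interferon signalling and ATG lists had 0 called in that fit.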

How the data were processed

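RNA was depleted of ribosomal RNA and sequenced as directional libraries. Per the methods and the submitters' processing notes, the authors trimmed reads with cutadapt 1.8.3, aligned them to mm10 with HISAT2 2.1.0 and used featureCounts 1.5.3, on the reverse strand, to assign reads to Gencode genes. The deposited values were raw read counts per protein-coding gene, with gene lengths. Groups followed the labels, which do not say that a replicate number marks 1 animal, so p-values measure the spread between these libraries.

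All 18 libraries entered 1 edgeR 4.0.16 quasi-likelihood fit (R 4.3.3, filterByExpr with a minimum count of 10, TMM, 11357 of 21734 genes), with Benjamini-Hochberg adjustment over all genes and a threshold of 0.05. Standard errors are the log2 fold change over the square root of F. Bounds use 3 counts per library, and reads carried no molecular identifiers, so floors cover counting error only. On simulated counts of resting KO against WT (11130 genes), 83% of 100 genes changed by 1 on the log2 scale and 99% of 100 changed by 3 were recovered, with 15 false among 197 calls. All simulated libraries were drawn around the resting WT means, and none stood apart as resting KO replicate 3 does. The members' standard errors in that comparison ran from 0.68 to 2.37, so the recovered shares cannot be taken over to them. Likeness used log2 CPM with a prior count of 2 and an average of at least 1, and the 5 nearest genes were named. All members were described, and of each list the called genes with the largest change were named (at most 3 in the LPS response of WT). A gene of the interferon list and a motif are not reported here. Gene positions and exons came from Gencode M21, where 21679 gene identifiers were found and 55 were not. RefSeq promoters were found for 5 members. Protein sequences were not used here, and identity was computed over coding bases. Alternatives were limma 3.58.1 (voom with quality weights), DESeq2 1.42.0, RLE scaling, other filters, the compared groups alone, a replicate block and each library left out. The members and gene lists were chosen with earlier results of these data known.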

Additional observations from a re-analysis of the deposited data

How the results depend on the processing

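None of the 54 log2 fold changes of members that were followed changed sign under any alternative run. Those of Gbp8, of 3F against WT and of the interaction tests were not among them. In WT 7 members were called in the LPS response throughout, and 3F against WT and both interaction tests had 0 called throughout. Of the 9 tested members, with 1 library left out at a time, 1 to 8 were called for the LPS response in KO (3 with all libraries), 6 to 7 for that in 3F (7), 1 to 8 for KO against WT at rest (6), 0 to 1 with LPS (1), 4 to 8 for KO against 3F at rest (7) and 0 to 1 with LPS (1). With limma-voom and quality weights the counts were 8 for the LPS response in KO, 3 for KO against WT at rest and 3 with LPS, and 4 for KO against 3F at rest and 3 with LPS. The 3 with LPS were Gbp4, Gbp5 and Gbp6 in both, and Gbp2b was not called. Fitting the compared groups alone gave 0 for the LPS response in KO, 0 for KO against WT and 0 for KO against 3F at rest, and 8 for KO against 3F with LPS. Leaving out resting KO replicate 3 and resting 3F replicate 3 together, chosen after seeing the data, gave 8 for the LPS response in KO and, for KO against 3F, 3 at rest and 2 with LPS. Beyond the fewer samples in some of these fits, the cause was not tested.

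The replicate numbers were checked for pairing. Resting and LPS libraries of the same number had deviations correlated at 0.03 to 0.32 over 9 pairs, 5 of them over 0.1, and 8 of 9 correlated best with their own number, which leans towards pairing as a hint from the data, but the labels do not give it and not every pair was over 0.1, so the block stayed an alternative. With the number as a block, 7 members were called for the LPS response in KO (Gbp2, Gbp3, Gbp4 and Gbp9 beside the 3 of the fit without it), 7 for KO against WT and 5 for KO against 3F at rest. Over all genes, the LPS response in KO had 6073 calls with limma-voom against 3059, and fitting the compared groups alone gave 396 against 1067 for KO against WT and 16 against 1464 for KO against 3F at rest. RLE scaling moved group levels by -1.76% to 2.56%. Few counts limited Gbp4, Gbp6, Gbp8 and Gbp10, and 3 libraries a group limited each test.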
